A study of Mus musculus with 2 samples.

Results

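The 9 genes described here are complement components and regulators: C1qa, C1qb and C1qc, C4b, C3, Cfb, Serping1, C3ar1 and C5ar1. They were taken by symbol from the 33696 features measured, each symbol matched 1 feature, and they were compared with 47 other complement genes. Unique molecular identifiers (UMIs, which mark single captured transcripts) were counted by droplet 3' single-cell RNA sequencing of skin wounds made to full thickness, 10 mm wide, on the back of wild-type male C57BL/6 mice and taken at day 6. The aged library came from mice of 24 months and the young library from mice of 2 months; both were pools of several animals, in a number the sources used here do not give. As neither age was replicated, no test between them was possible. Every interval is a 95% interval for counting error only, and effects of age, of the animals pooled and of the preparation cannot be told apart.

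Complement is a cascade of proteins that bind microbes, immune complexes and damaged cells. C1q, built of the C1qa, C1qb and C1qc chains, starts the classical pathway, in which the C1r and C1s proteases cleave C4 and C2 so that C3 is cleaved in turn. Factor B (Cfb) forms the convertase of the alternative pathway, the C1 inhibitor Serping1 blocks C1r and C1s, and the fragments C3a and C5a act on myeloid cells through C3ar1 and C5ar1. The liver makes most circulating complement, while C1q is made mainly by macrophages and tissue fibroblasts are a known local source of several components.

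The aged library kept 4210 cells with a median of 13776.5 UMIs, and the young library 4661 cells with a median of 15566. Only 3 barcodes were shared between the libraries. Cells were put in classes by lists of marker genes that held none of the 9 genes. Fibroblast-gated cells numbered 1470 aged and 1572 young, macrophage-gated cells 1140 and 766, and neutrophil-gated cells 878 and 1319. Their own markers were all detected: the 7 fibroblast markers summed to 57630 CPM (UMIs of a gene scaled to an equal total per class) in aged and 67004 CPM in young fibroblast-gated cells, the 7 macrophage markers to 4353 and 3565 CPM in macrophage-gated cells, and the 8 neutrophil markers to 58241 and 91631 CPM in neutrophil-gated cells. T/NK-gated cells were few in the aged library, with 32 against 292 young, and endothelial-gated cells numbered 49 aged and 70 young. A score on 15 marker lists left 556 aged and 479 young cells in no class, and 156 of the macrophage-gated cells lay within 0.05 of the score that admits a cell, against 12 of the fibroblast-gated ones.

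For 8 of the 9 genes the same class held most UMIs in both libraries; C5ar1 was the exception. Macrophage-gated cells held 94.2% of the C1qa UMIs of the aged library and 92.2% of those of the young library, and for C1qb and C1qc the shares lay between 90.8% and 94.0%. Fibroblast-gated cells held 99.5% of the aged and 98.0% of the young Serping1 UMIs, 96.5% and 94.7% of the Cfb UMIs, 95.3% and 93.3% of the C4b UMIs, and 95.8% and 88.4% of the C3 UMIs. The C3a receptor gene C3ar1 was counted mostly in macrophage-gated cells, with 90.3% of its aged and 88.3% of its young UMIs. C5ar1 was shared: macrophage-gated cells held 55.4% of its aged and 27.4% of its young UMIs, and neutrophil-gated cells 32.5% and 61.7%, beside the differing numbers of those cells given above. Over all genes, fibroblast-gated cells held 77430519 of the 107577591 aged and 70876755 of the 111268003 young UMIs. Macrophage-gated cells held 16694584 and 13836039. By UMIs held, the components were split, with C1q on the macrophage side and C3, C4b, Cfb and Serping1 on the fibroblast side. By CPM, the 25 young adipocyte-gated cells exceeded young fibroblast-gated ones in C3 (2717 against 1149), C4b (1519.5 against 497) and Cfb (551 against 396), not in Serping1. The 1 aged adipocyte-gated cell did so in C3 and C4b only.

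**Figure D1:**
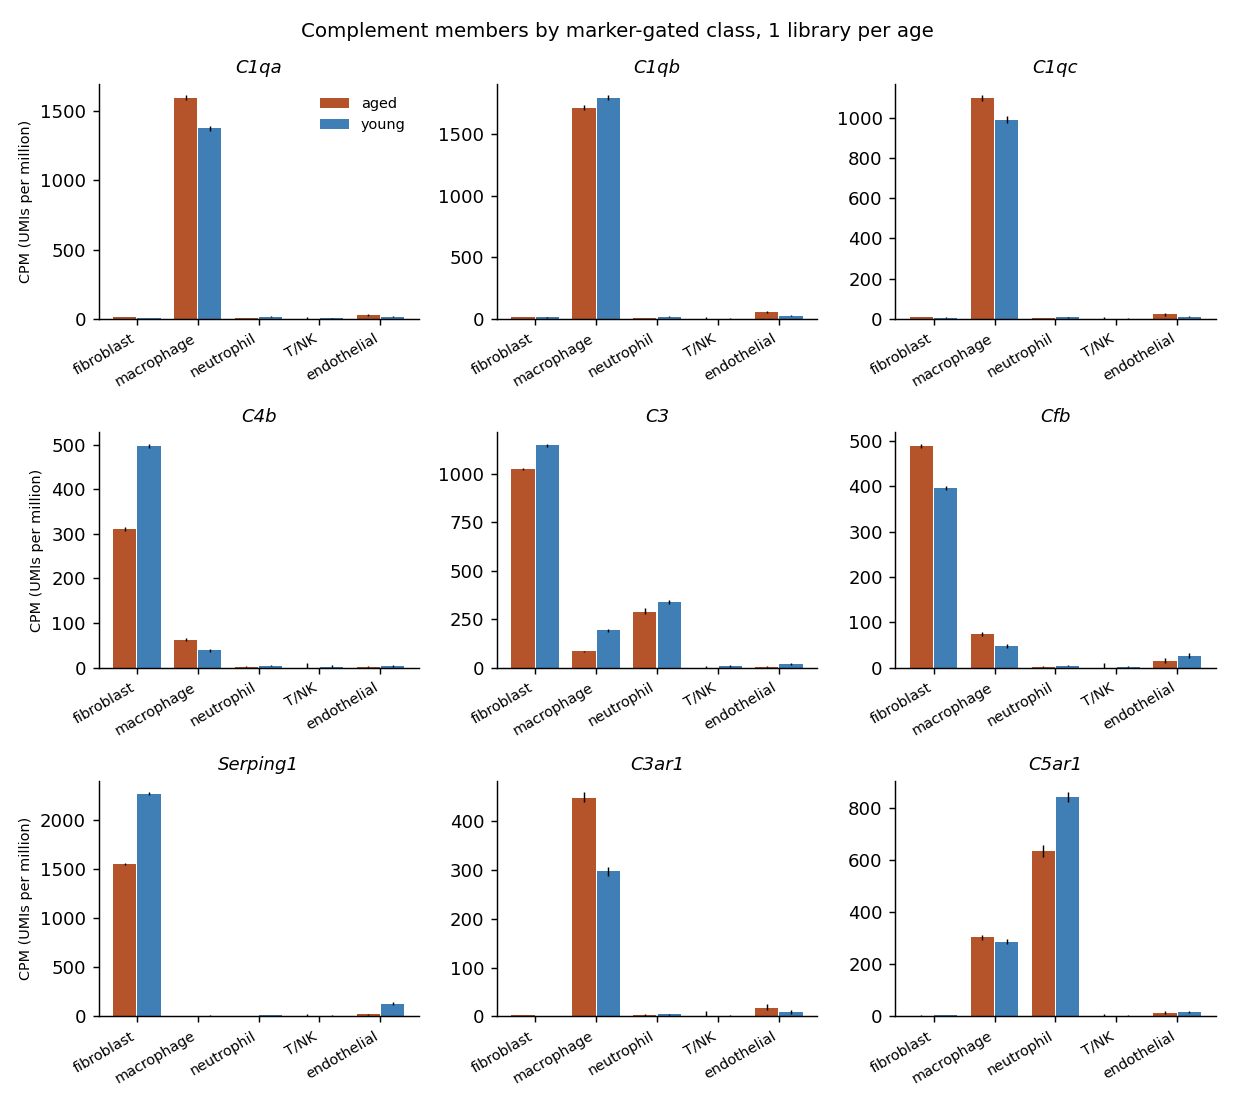
CPM of each of the 9 genes in the 5 marker-gated classes with at least 30 cells in both libraries, with the aged library left of the young; bars are UMIs summed over a class and scaled to its total, and the lines are exact Poisson intervals at 95%, for counting error only. The C1q chains and C3ar1 stand in macrophage-gated cells, C3, C4b, Cfb and Serping1 in fibroblast-gated cells, and C5ar1 in neutrophil-gated and macrophage-gated cells.

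A gene was called higher or lower at an aged/young CPM ratio past 1.5-fold, with at least 20 UMIs over both libraries. In fibroblast-gated cells 19.9% of the 18288 genes so tested were past that fold in either direction, in macrophage-gated cells 24.9% of 13024 and in neutrophil-gated cells 33.8% of 9945. Among genes with at least 1000 UMIs the shares were 7.04%, 9.48% and 20.1%. Of the 9 members, 4 were past it in fibroblast-gated cells (3 higher and 1 lower), 4 in macrophage-gated cells (3 higher and 1 lower) and 7, all lower, in neutrophil-gated cells. The median log2 ratio of the members was 0.30 in fibroblast-gated cells against 0.09 over all genes tested, 0.15 against 0.25 in macrophage-gated cells and -1.03 against 0.20 in neutrophil-gated cells. All 3 members called higher in fibroblast-gated cells, C1qa, C1qc and C3ar1, and all 7 called lower in neutrophil-gated cells stood at under 20 CPM in both libraries. In neutrophil-gated cells the fibroblast markers summed to 218.9 CPM aged and 278.0 CPM young, with Pdgfrb at 0 in the aged library, and the macrophage markers to 378.0 and 294.1 CPM with none at 0; their part in the low members there was not tested. Trimmed mean of M-values (TMM) scaling, which sets the bulk of genes level between the libraries, lowered every aged/young log2 ratio by 0.09 in fibroblast-gated, 0.22 in macrophage-gated and 0.24 in neutrophil-gated cells.

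**Figure D2:**
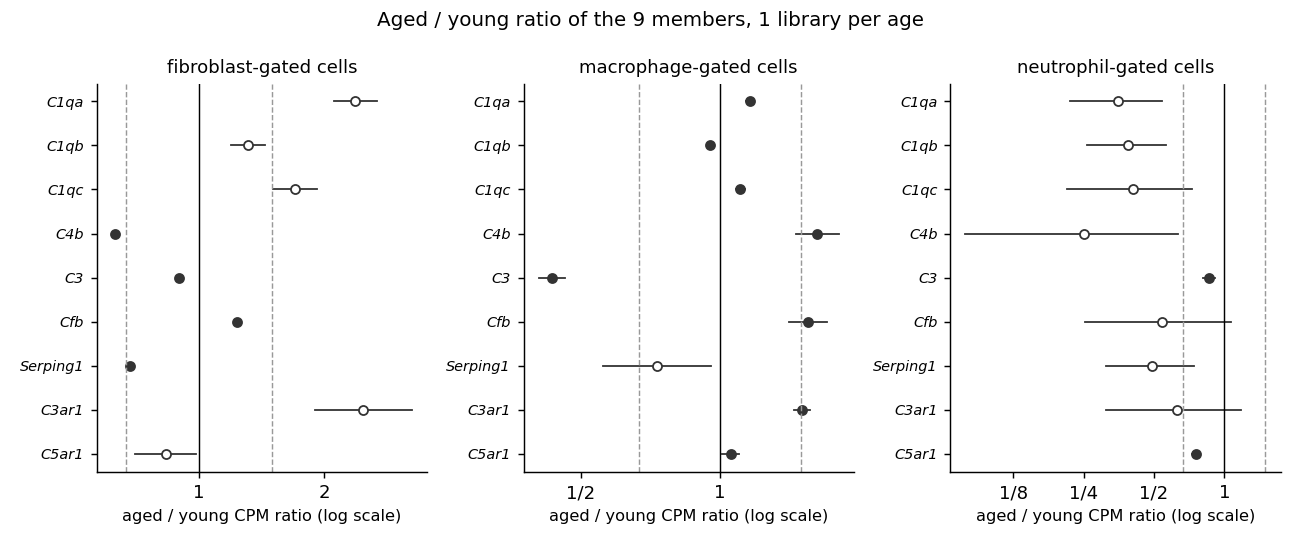
Aged/young CPM ratio of the 9 genes on a log axis in fibroblast-gated, macrophage-gated and neutrophil-gated cells, with exact 95% counting intervals; dashed lines mark 1.5-fold either way, and open points are genes under 20 CPM in both libraries. In fibroblast-gated cells C4b at 0.626 is the 1 gene above that level past the line, and in macrophage-gated cells C3 at 0.432, C4b at 1.63, Cfb at 1.56 and C3ar1 at 1.51 are past it; under TMM scaling only C3 of these 4 macrophage ratios stays past the line.

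The 3 C1q chains, which bind together in fixed proportion in the protein, each lay within 1.5-fold between the libraries in macrophage-gated cells. C1qa (ENSMUSG00000036887) had 1598 CPM in aged and 1375 CPM in young macrophage-gated cells, a ratio of 1.16 (1.14 to 1.18). C1qb (ENSMUSG00000036905) had 1714 CPM in aged and 1796 CPM in young cells, a ratio of 0.955 (0.939 to 0.971). C1qc (ENSMUSG00000036896) had 1097 CPM in aged and 990.4 CPM in young cells, a ratio of 1.11 (1.08 to 1.13). Summed, the chains reached 4409.8 CPM in aged and 4161 CPM in young cells, a ratio of 1.06 (1.05 to 1.07), so C1q as a whole lay close to level. Under TMM scaling the direction of the sum turned, to 0.909, and the chains lay at 0.997 for C1qa, 0.819 for C1qb and 0.951 for C1qc. The mean of per-cell levels also put the sum under 1, at 0.977.

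By class sums C1qb was the chain that moved against the others. With Leiden clusters all 3 chains lay above 1, at 1.05 for C1qb, 1.30 for C1qa and 1.24 for C1qc. C1qb made up 38.9% of the C1q UMIs of aged macrophage-gated cells and 43.2% of those of young ones. C1qa made up 36.2% and 33.1%, and C1qc 24.9% and 23.8%. Among the groups described below, the C1qb share was 36.5% aged and 42.0% young in resident-type cells and 41.8% and 43.4% in the remaining cells. It was nearly level in the Ly6c2 Plac8 group, at 51.2% and 51.9%, and in the Mmp12 group, at 44.9% and 45.0%. These are shares of captured UMIs, which need not equal shares of transcripts. Across single macrophage-gated cells the chains followed each other closely, with Spearman correlations of 0.853 to 0.895 in the aged and 0.908 to 0.928 in the young library, over 1140 and 766 cells that share their library and differ in depth. All 3 chains were counted in 67.2% of aged and 60.8% of young macrophage-gated cells, and none in 21.8% and 30.03%. After each cell was thinned to 2000 UMIs, C1qa was seen in 63.4% of 1097 aged and 55.1% of 749 young cells (72.6% and 64.0% without thinning). In fibroblast-gated cells, thinned alike, it was seen in 1.73% and 0.715%; median depths before thinning were 12951 and 16394.5 UMIs in macrophage-gated and 49936.5 and 42086.5 in fibroblast-gated cells.

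The C1q genes lie side by side: C1qa, C1qc and C1qb are consecutive protein-coding genes of mouse chromosome 4 in the RefSeq annotation of GRCm38.p6. The 250 bases before the start of C1qb and C1qc are shown because these chains vary together from cell to cell. Both are read on the minus strand, 5′ to 3′, and capitals mark GAGGAA or its reverse complement TTCCTC, the core of sites for the myeloid factor PU.1. RefSeq holds both, at chr4:136886201-136886450 for C1qb and chr4:136892915-136893164 for C1qc.

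C1qb: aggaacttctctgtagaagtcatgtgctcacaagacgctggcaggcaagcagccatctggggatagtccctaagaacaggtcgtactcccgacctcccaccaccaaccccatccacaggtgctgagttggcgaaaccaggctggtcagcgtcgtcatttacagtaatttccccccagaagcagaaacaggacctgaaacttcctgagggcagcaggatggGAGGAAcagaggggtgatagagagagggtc
C1qc: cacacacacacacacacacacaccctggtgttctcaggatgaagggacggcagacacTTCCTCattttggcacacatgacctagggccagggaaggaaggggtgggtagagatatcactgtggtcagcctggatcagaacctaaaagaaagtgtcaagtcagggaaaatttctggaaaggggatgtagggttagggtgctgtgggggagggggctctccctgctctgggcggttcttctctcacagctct

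The 6 letters began 30 bases before the start in C1qb and 193 bases before it, on the opposite strand, in C1qc. They occur on either strand in 23.3% of the 32851 RefSeq windows of this length, so a match is common and describes the letters only. Windows were at hand for 5 of the 9 members. None of those 5 held the interferon-gamma activated site TTCNNNGAA (7.02% of windows) or the core of the interferon-stimulated response element (2.98%), both searched on either strand. The letters TATAAA (12.4% of windows) were found in the C3ar1 window only, 235 bases before its start.

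C1q differed more between kinds of macrophage than between the libraries. Cells scoring for the receptors Cd163, Folr2, Lyve1 and F13a1, genes of resident-type macrophages, numbered 410 aged and 179 young, or 36.0% and 23.4% of macrophage-gated cells. They held the highest summed C1q, 6662 CPM in aged and 6785 CPM in young cells, a ratio of 0.982 (0.967 to 0.997). Cells scoring for Ly6c2, Plac8, Ccr2 and Chil3, genes of recently arrived monocytes, held 1559.6 CPM in 148 aged and 903.6 CPM in 136 young cells, a ratio of 1.73 (1.63 to 1.83). Few cells carried those sums: 10 cells held 47.7% of the aged and 62.4% of the young UMIs, and the median cell had 0.748 and 0 UMIs per 10000. Resident-type cells thus exceeded the Ly6c2 group 4.27-fold (4.11 to 4.44) in the aged and 7.51-fold (7.16 to 7.88) in the young library. Cells scoring for Mmp12, Il1a and Areg held 1893 CPM aged and 2162 CPM young, a ratio of 0.875 (0.836 to 0.916). There 10 cells held 67.8% of the aged and 45.3% of the young UMIs, and the median cell ran the other way, at 4.28 UMIs per 10000 aged and 1.31 young.

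The remaining macrophage-gated cells, 42.9% of aged and 43.5% of young ones, had summed C1q of 3321 CPM aged and 4344 CPM young, a ratio of 0.764 (0.750 to 0.779). By sums, the overall ratio near 1 joined 3 groups under 1 with 1 above it, together with a larger aged share of the group richest in C1q; by median cells the Mmp12 group too was higher in the aged library. The part of that share in the overall ratio was not tested. The subsets were cut from scores, so they are ranges and not separate types.

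**Figure D3:**
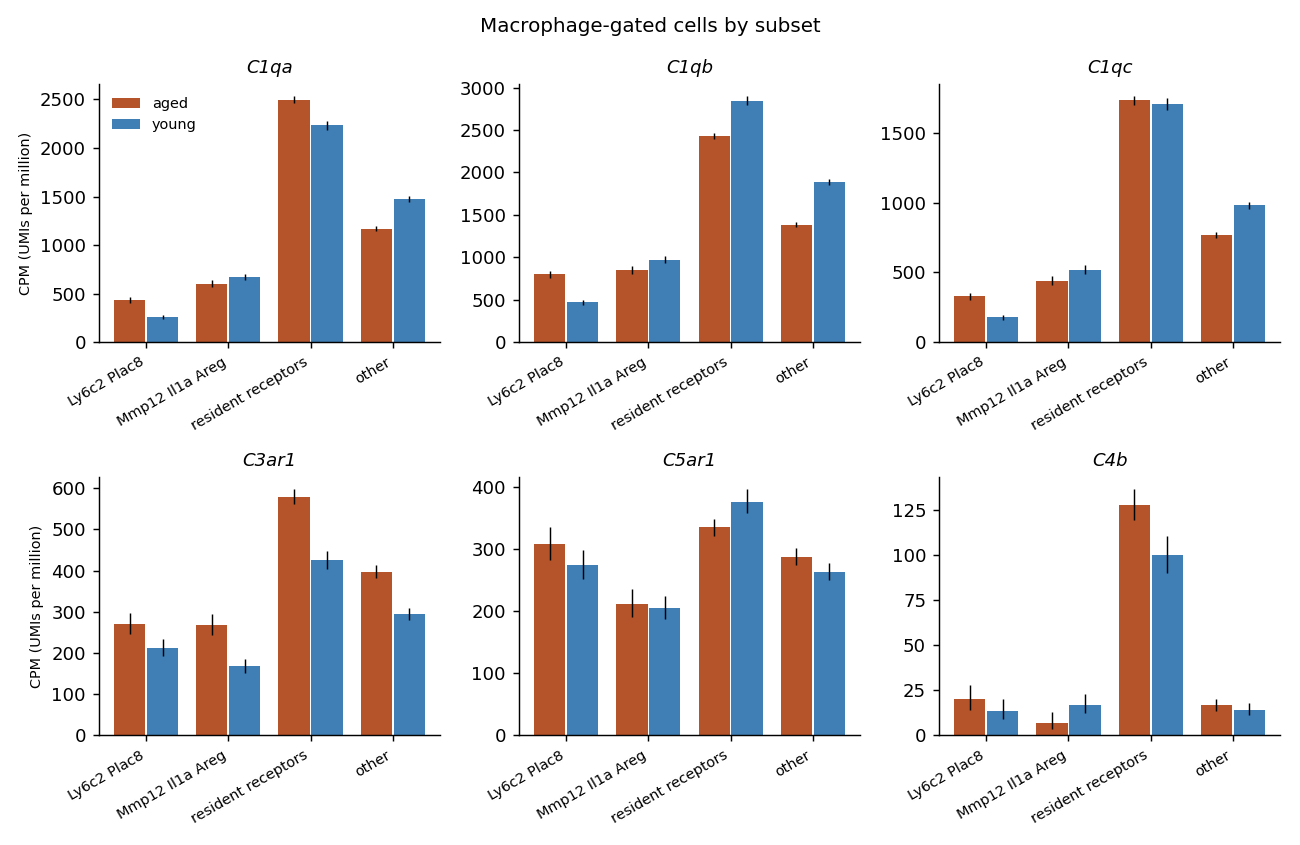
CPM of the C1q chains, C3ar1, C5ar1 and C4b in 4 score-defined groups of macrophage-gated cells, aged left of young, with exact 95% Poisson intervals for counting error. All 3 chains are highest in the resident-receptor group of both libraries; in the Ly6c2 Plac8 group each chain is higher in aged cells, and C4b stands at 128 CPM aged and 100.01 CPM young in the resident-receptor group, and highest in that group of both libraries.

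In fibroblast-gated and neutrophil-gated cells C1q was low. Summed C1q was 37.1 CPM in aged and 22.0 CPM in young fibroblast-gated cells, and 10 cells of each library held 67.0% and 76.9% of those UMIs. The 7 macrophage markers summed to 77.8 and 78.0 CPM in the same fibroblast-gated cells, with none at 0. In neutrophil-gated cells summed C1q was 15.2 CPM aged and 40.2 CPM young. C3ar1 in fibroblast-gated cells, at 2.73 CPM aged and 1.10 CPM young, was as uneven, with 10 cells holding 59.2% and 53.9% of its UMIs. Smaller classes held more summed C1q: 261.3 CPM in aged and 433.7 CPM in young ungated cells, 102.5 and 49.9 CPM in endothelial-gated cells, and 378.2 CPM in the 6 aged against 6.79 CPM in the 28 young pericyte or smooth muscle-gated cells. The 1 aged adipocyte-gated cell had 2585 CPM. The part of macrophage RNA in these counts was not tested.

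C4b encodes component C4, which is split by C1s and then becomes part of the C3 convertase of the classical and lectin pathways. Its near-identical copy C4a was counted 74 times in the aged and 74 times in the young fibroblast-gated cells, so reads that fit both could have been lost or assigned to either, and C4b values carry that uncertainty. In fibroblast-gated cells C4b (ENSMUSG00000073418) had 311 CPM in aged and 497 CPM in young cells, a ratio of 0.626 (0.616 to 0.637). Among fibroblast groups it was 0.413 in cells of no group, 0.672 in Pi16 Dpp4 cells and 0.781 in Cxcl14 Cilp cells. In Acta2 Crabp1 cells it was 1.56 (1.29 to 1.89), on 428 and 150 UMIs, of which 10 cells held 39.7% and 56%. In macrophage-gated cells the order was opposite to that of the whole fibroblast class. They had 63.0 CPM in aged and 38.7 CPM in young cells, a ratio of 1.63 (1.47 to 1.81).

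C4b in macrophage-gated cells was concentrated in the resident-receptor group. That group held 128 CPM in aged and 100.01 CPM in young cells, a ratio of 1.28 (1.14 to 1.45), and exceeded the Ly6c2 Plac8 group 6.39-fold (4.56 to 9.23) in the aged and 7.26-fold (4.91 to 11.2) in the young library. The Mmp12 group went the other way, at 7.13 CPM aged and 17.1 CPM young. That rests on 11 and 41 UMIs, of which 10 cells held 100% and 95.1%. Fibroblast markers in macrophage-gated cells summed to 161.1 CPM aged and 187.4 CPM young. There were 9.93 C4b UMIs per Serping1 UMI in aged macrophage-gated cells and 4.46 in young ones, against 0.2004 and 0.2186 in fibroblast-gated cells. The part of fibroblast RNA in the macrophage C4b counts was not tested.

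C3 is where all complement pathways meet. Its 250 bases before the start are shown because C3 is the central component, and acute-phase activation of C3 is known to run through C/EBP factors; capitals mark a match to their pattern TTGCNNAA, searched on both strands. The window is chr17:57228137-57228386 of RefSeq's GRCm38.p6, minus strand, 5′ to 3′.

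C3: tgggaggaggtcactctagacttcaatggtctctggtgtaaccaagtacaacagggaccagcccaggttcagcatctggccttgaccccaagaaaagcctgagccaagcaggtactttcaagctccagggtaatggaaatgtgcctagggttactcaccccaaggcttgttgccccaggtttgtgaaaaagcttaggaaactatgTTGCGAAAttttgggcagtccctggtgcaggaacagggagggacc

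The match began 45 bases before the start, and 9.56% of all windows hold the pattern. In fibroblast-gated cells C3 (ENSMUSG00000024164) had 1026 CPM in aged and 1149 CPM in young cells, a ratio of 0.893 (0.885 to 0.902), short of 1.5-fold. The middle cell was further apart than the sum, at 4.09 C3 UMIs per 10000 in aged and 6.46 in young cells, while the 90th percentile was 36.3 in aged and 33.7 in young cells. The 10 cells with the most C3 held 5.83% of aged and 6.06% of young C3 UMIs.

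That small overall difference covered opposite ones among fibroblast groups. In cells scoring for Cxcl14, Cilp and Eln, a matrix-rich group of 194 aged and 259 young cells, C3 had 2186 CPM aged and 1632 CPM young, a ratio of 1.34 (1.31 to 1.37). Cells scoring for Pi16, Dpp4 and Sema3c, genes of adventitial-type fibroblasts, numbered 679 aged and 574 young and had 1380.1 and 1454 CPM, a ratio of 0.949 (0.936 to 0.962). In the 457 aged and 627 young fibroblasts of no group C3 had 485 CPM aged and 931 CPM young, a ratio of 0.521 (0.510 to 0.532). Cells scoring for Acta2, Tagln, Crabp1 and Prss35, contractile wound fibroblasts, were lowest at 119.4 CPM in 139 aged and 81.5 CPM in 99 young cells, a ratio of 1.47 (1.31 to 1.64).

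Within each library the contractile group was the lowest of the 4 in C3, C4b, Cfb and Serping1. C3 was 11.6-fold (10.9 to 12.3) lower there than in the Pi16 Dpp4 group of the aged library and 17.8-fold (16.2 to 19.7) lower in the young. For C4b the same comparison gave 9.95-fold and 23.0-fold, for Cfb 5.06-fold and 8.96-fold and for Serping1 3.17-fold and 4.36-fold. Across single fibroblast-gated cells C3 ran against the score of the contractile list, with a Spearman correlation of -0.595 over 1470 aged and -0.584 over 1572 young cells of 1 library each.

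Fibroblasts high in interferon-response genes carried more of all 4 fibroblast members. Cells scoring for Ifit1, Ifit3, Rsad2, Isg15 and Irf7 made up 29.0% of aged fibroblast-gated cells (426) and 10.2% of young ones (161). Over the other fibroblasts of their library C3 was 2.78-fold higher in them in the aged and 1.68-fold in the young library, C4b 2.80-fold and 1.72-fold, Cfb 1.76-fold and 2.01-fold, and Serping1 1.77-fold and 1.52-fold. Within interferon-high cells C3 had 1949 CPM aged and 1809.6 CPM young, a ratio of 1.08 (1.06 to 1.10). In the rest it had 700.5 CPM aged and 1077 CPM young, a ratio of 0.650 (0.642 to 0.658), so the shortfall of aged cells lay among those not interferon-high. Cycling cells, 144 aged and 76 young scoring for Top2a, Mki67, Cdk1, Ube2c and Plk1, had 0.284 times the C3 of other fibroblasts in the aged and 0.197 times in the young library.

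**Figure D4:**
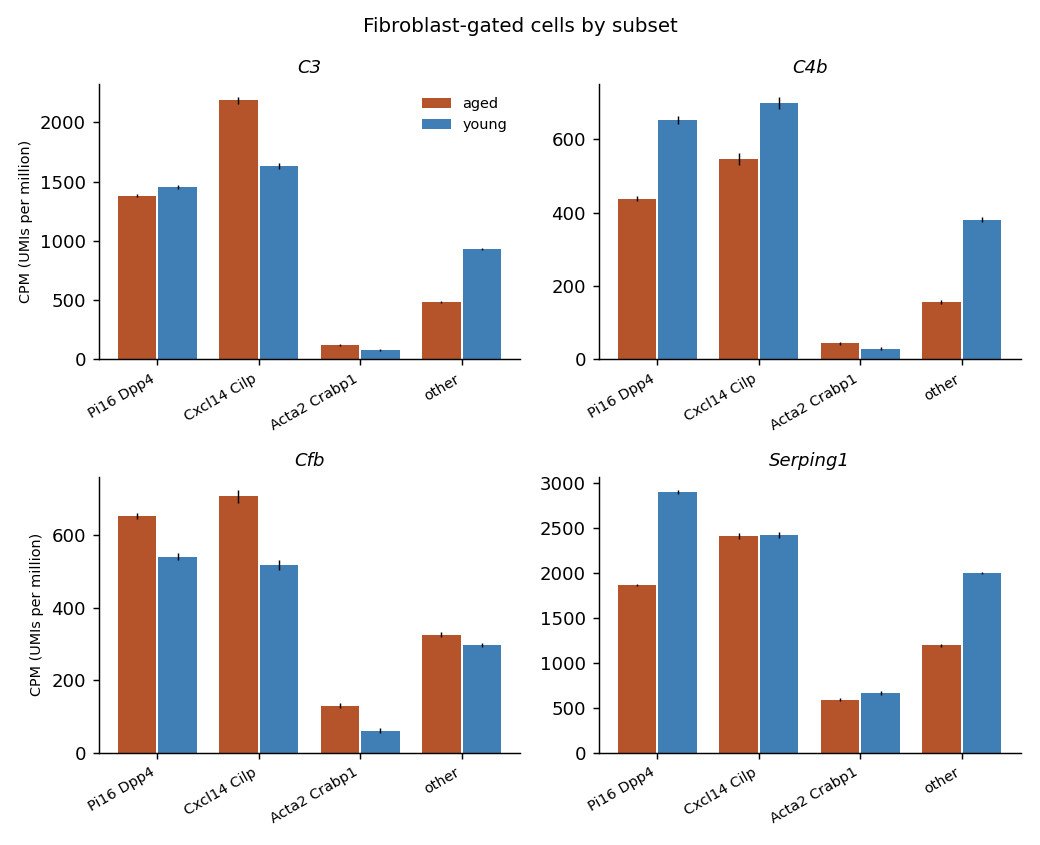
CPM of C3, C4b, Cfb and Serping1 in 4 groups of fibroblast-gated cells set by marker scores, aged left of young, with exact 95% Poisson intervals for counting error. All 4 genes are lowest in the Acta2 Crabp1 group of both libraries; C3 in the Cxcl14 Cilp group is higher in aged cells (2186 against 1632 CPM), and in the fibroblasts of no group lower (485 against 931 CPM).

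C3 was also counted outside fibroblasts. Neutrophil-gated cells had 289.7 CPM of C3 aged and 337 CPM young, a ratio of 0.859 (0.807 to 0.915). At 2000 UMIs C3 was seen in 35.1% of 801 aged and 45.9% of 1239 young cells (55.7% and 70.8% without thinning). In young T/NK-gated cells, with a median of 7490 UMIs against 5693 in young neutrophil-gated cells, the thinned share was 2.42% of 289. Neutrophil-gated cells held 48.4 C3 UMIs per Serping1 UMI in the aged and 27.6 in the young library, against 0.660 and 0.505 in fibroblast-gated cells. The part of fibroblast RNA in the neutrophil C3 counts was not tested.

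In macrophage-gated cells C3 had 83.6 CPM aged and 193.6 CPM young, a ratio of 0.432 (0.405 to 0.461), the lowest of the 9 genes in that class. It was lower in aged cells in all 4 macrophage groups, with ratios of 0.358 to 0.686. The 8 neutrophil markers in macrophage-gated cells moved the same way, summing to 547.4 CPM aged and 1073 CPM young with none at 0, and their part in this difference was not tested. C3 per Serping1 UMI was 13.2 in aged and 22.3 in young macrophage-gated cells.

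Cfb supplies the catalytic part of the alternative pathway's C3 convertase. Cfb (ENSMUSG00000090231) had 489 CPM in aged and 396 CPM in young fibroblast-gated cells, a ratio of 1.23 (1.21 to 1.25), the 1 member of the fibroblast side that was higher in the aged library. It was above 1 in all 4 fibroblast groups, at 2.14 in the Acta2 Crabp1 group, 1.37 in the Cxcl14 Cilp group, 1.21 in the Pi16 Dpp4 group and 1.09 in the rest. Among interferon-high cells the ratio was 0.989 (0.958 to 1.02), with 718 CPM aged and 725 CPM young, and among the others 1.13 (1.11 to 1.15). In macrophage-gated cells Cfb had 73.7 CPM aged and 47.4 CPM young, a ratio of 1.56 (1.41 to 1.71), and at 2000 UMIs it was seen in 12.1% of aged and 6.54% of young cells (35.6% and 30.9% without thinning). The thinned share in neutrophil-gated cells was 0.2497% and 0.7264%. By macrophage group, Cfb had 116.4 CPM aged and 80.4 CPM young in resident-receptor cells. It had 79.0 and 61.8 CPM in Ly6c2 Plac8 cells, and 25.3 and 25.4 CPM in the Mmp12 group. None of these groups was past 1.5-fold. Resident-receptor cells made up 36.0% of aged and 23.4% of young macrophage-gated cells. The part of that share in the class ratio of Cfb was not tested.

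Serping1, a serine protease inhibitor of C1r, C1s and the lectin pathway proteases, had the largest share of UMIs in 1 class of the 9 genes. By CPM it was less confined, at 1047 in the 28 young pericyte or smooth muscle-gated and 947 in the 25 young adipocyte-gated cells. In fibroblast-gated cells Serping1 (ENSMUSG00000023224) had 1554 CPM aged and 2274 CPM young, a ratio of 0.683 (0.678 to 0.688), just short of 1.5-fold lower; under TMM scaling the ratio was 0.642 and past it. The middle cell held 13.6 UMIs per 10000 in the aged and 22.1 in the young library, so the middle cells differed as the sums did. Among its groups the ratio was 0.995 (0.977 to 1.01) in Cxcl14 Cilp cells, 0.887 in Acta2 Crabp1 cells, 0.643 in Pi16 Dpp4 cells and 0.596 in the rest. Interferon-high and other fibroblasts gave 0.698 and 0.597.

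Vascular cells held Serping1 too, on few cells. Endothelial-gated cells had 20.2 CPM aged and 129 CPM young, a ratio of 0.157 (0.113 to 0.214), on 46 and 387 UMIs. The 7 fibroblast markers in these cells moved the same way, summing to 131.1 CPM aged and 561.6 CPM young, with Lum uncounted in the aged ones. Their part in this ratio was not tested. Pericyte or smooth muscle-gated cells, 6 aged and 28 young, had 338 and 1047 CPM. In macrophage-gated cells Serping1 stood at 6.35 CPM aged and 8.67 CPM young, a level at which its thinned share, 1.55% and 2.14% of cells, was below that of neutrophil-gated cells at 1.87% and 2.26%.

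From cell to cell the 4 fibroblast members varied together. Spearman correlations between pairs of C3, C4b, Cfb and Serping1 ran from 0.686 to 0.804 over aged and from 0.654 to 0.787 over young fibroblast-gated cells, highest for C3 with C4b in both libraries. The ratios between libraries nonetheless ran from 0.626 for C4b to 1.23 for Cfb, so per Serping1 UMI the aged fibroblast-gated cells held 0.315 Cfb UMIs and the young ones 0.174.

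C3ar1, the receptor for the C3a fragment, was higher in aged macrophage-gated cells. C3ar1 (ENSMUSG00000040552) had 449 CPM in aged and 298 CPM in young cells, a ratio of 1.51 (1.45 to 1.57). It was seen in 52.4% of aged and 37.4% of young cells at 2000 UMIs (86.1% and 80.4% without thinning), against 0.375% and 0.565% of neutrophil-gated cells. All 4 macrophage groups lay above 1, with 1.59 in the Mmp12 group, 1.36 in the resident-receptor group, 1.35 in the rest and 1.28 in the Ly6c2 Plac8 group. Under TMM scaling the ratio was 1.29, under 1.5-fold, as were C4b at 1.40 and Cfb at 1.33 in these cells. The call also ended for C3ar1 with a stricter gate (1.46), for C4b as a mean of per-cell levels (1.47) and for Cfb with Leiden clusters (1.46). Without the 4% highest doublet scores C3ar1 was at 1.49. The doublet method did not work here, so that setting cannot show a dependence on doublets. The resident-receptor group exceeded the Ly6c2 Plac8 group 2.14-fold in the aged and 2.01-fold in the young library.

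C5ar1, the main receptor for the chemoattractant C5a, showed no such pattern. In macrophage-gated cells C5ar1 (ENSMUSG00000049130) had 303 CPM aged and 287 CPM young, a ratio of 1.06 (1.01 to 1.10) that turned to 0.907 under TMM scaling. In neutrophil-gated cells it had 636 CPM aged and 842 CPM young, a ratio of 0.755 (0.724 to 0.787); under TMM scaling it was 0.638, past 1.5-fold lower. At 2000 UMIs it was seen in 62.5% of aged and 74.3% of young neutrophil-gated cells (80.1% and 90.9% without thinning), against 0.416% and 1.04% of fibroblast-gated cells. Neutrophil-gated cells of the aged library also held less of the 8 neutrophil markers, 58241 against 91631 CPM, and the part of that in the C5ar1 difference was not tested.

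Other genes of the pathway in fibroblast-gated cells were more often lower in the aged library. Of the 47 listed, 37 had at least 20 UMIs over both libraries; 7 were higher and 12 lower past 1.5-fold, against 11.8% of all genes tested that were higher and 8.13% that were lower, and their median log2 ratio was -0.17. The classical proteases C1ra and C1s1 were at 0.744 (0.730 to 0.758) and 0.810 (0.796 to 0.825), under 1.5-fold, and C2, the partner of C4 in the convertase, at 0.716.

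By the rule for naming these genes, the highest fibroblast ratios were of Fcna, a ficolin, at 5.95 (3.22 to 12.0) on 78 and 12 UMIs, and Colec10, a collectin, at 4.15 (2.25 to 8.26) on 59 and 13. The lowest were of Cfd, the factor D protease that activates factor B, at 0.030 on 4 and 122 UMIs, and C1rb at 0.226 on 44 and 178. Adipocyte-gated cells, the main source of Cfd, numbered 1 aged and 25 young, and the 3 adipocyte markers summed to 0.220 CPM in aged and 0.508 CPM in young fibroblast-gated cells with none at 0; their part in the Cfd ratio was not tested. Fcna stood higher in macrophage-gated cells, as given below. The 7 macrophage markers summed to 77.8 CPM in aged and 78.0 CPM in young fibroblast-gated cells. The part of macrophage RNA in the fibroblast ratio of Fcna was not tested. Fcna, Colec10, Cfd and C1rb stood at under 3 CPM in fibroblast-gated cells of both libraries. Masp1, a lectin pathway protease, was lower on a firmer base, with 9.80 CPM aged and 30.8 CPM young, a ratio of 0.318 (0.293 to 0.346).

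In macrophage-gated cells 22 of the 47 were countable, and 6 were higher and 4 lower, against 19.2% of all genes tested that were higher and 5.7% that were lower. The highest ratios were of Cd46, a membrane regulator, at 2.68 (1.62 to 4.61) on 68 and 21 UMIs, and Fcna, with 104.0 CPM aged and 43.0 CPM young, a ratio of 2.42 (2.20 to 2.66). The lowest were of Cfd at 0.080, on 3 and 31 UMIs beside adipocyte markers of 0.240 CPM aged and 0.650 CPM young, and of Cd55, which speeds decay of the C3 convertases, with 7.07 CPM aged and 34.5 CPM young, a ratio of 0.205 (0.166 to 0.251). In neutrophil-gated cells 16 were countable, and 4 were higher and 4 lower, against 23% and 10.8% of all genes.

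**Figure D5:**
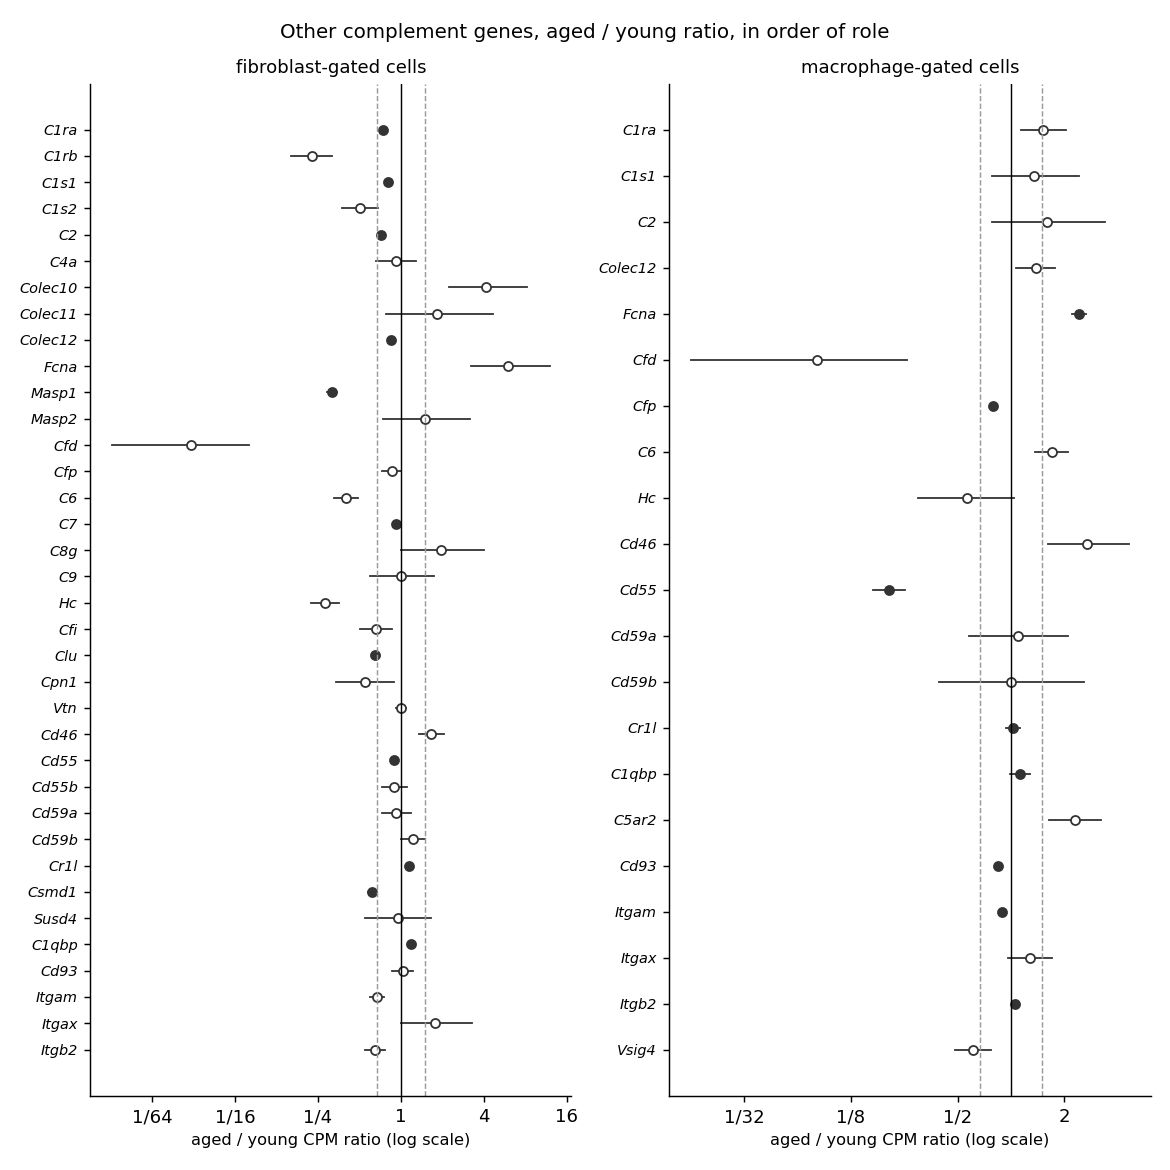
Aged/young CPM ratio on a log axis, with exact 95% counting intervals, of other complement genes with at least 20 UMIs, ordered by role from classical pathway to receptors, in fibroblast-gated cells (36 genes drawn) and macrophage-gated cells (21 genes drawn); dashed lines mark 1.5-fold and open points are under 20 CPM in both libraries. Most points past the lines are open; Masp1, Clu and Csmd1 are filled and lower in fibroblast-gated cells, and Fcna is filled and higher while Cd55 is filled and lower in macrophage-gated cells.

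The class with the highest level differed between roles. Among classical genes C1s1 led in fibroblast-gated cells, with 280.2 CPM aged and 345.7 CPM young, and among lectin genes Colec12, a scavenger collectin, did so there with 138.4 and 163.5 CPM. Among alternative genes Cfd led, in adipocyte-gated cells, as given below. Properdin (Cfp), the other alternative gene listed, which stabilises the alternative convertase, was highest in macrophage-gated cells, with 336 CPM aged and 425 CPM young. Terminal component C7 had its highest level of the 4 fibroblast groups in Cxcl14 Cilp cells, a group earlier named in these data with C7 among its genes. There C7 had 121 CPM aged and 91.7 CPM young. That group held 1052 of the 2130 aged and 945 of the 2105 young C7 UMIs of fibroblast-gated cells. Its C7 level was 6.62-fold above the Pi16 Dpp4 group in the aged and 6.59-fold in the young library. Among soluble regulators Clu, clusterin, had its highest level in adipocyte-gated cells, at 3058 CPM in the 1 aged cell and 1990.6 CPM in the 25 young ones. The membrane regulator Cd55 was highest in fibroblast-gated cells at 210.5 CPM aged and 237 CPM young, and the receptor gene Cd93 in endothelial-gated cells at 910 CPM aged and 613 CPM young.

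Adipocyte-gated cells, 1 aged and 25 young, were few but rich in complement. The 25 young cells had 2717 CPM of C3, 1519.5 CPM of C4b and 47954 CPM of Cfd, which mouse fat cells secrete as adipsin, and they held 54975 of the 55686 Cfd UMIs of the young library. The 1 aged cell had 2277 CPM of C3 and 21341 CPM of Cfd. With 1 aged cell no aged/young ratio is read from this class.

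The genes most like summed C1q over 12 class-by-library sums, by Pearson correlation of log2(CPM + 5), were Msr1 at 0.980, Oasl1 at 0.971, Cmklr1 at 0.965, Apoe at 0.965 and Tnfsf13 at 0.958, out of 14296 genes ranked. For C3 they were Gm55330 at 0.976, Serpinb2 at 0.973, Hp at 0.956, Ptgs2os at 0.942 and Fam162a at 0.931. The points share their libraries in groups of 6 and the values describe likeness of level only.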

How the data were processed

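The deposited matrices of the 2 libraries hold unnormalized UMI counts for each gene in each barcode. Per the file headers the authors ran Cell Ranger 8.0.1; GRCm38/mm10, Cell Ranger 9.0, STAR and Seurat 4 are what the submitters' processing notes list. GENCODE M21, an annotation of that genome, lacks 1684 of the feature identifiers, so the build behind the counts is uncertain; promoter coordinates are RefSeq's own. The 9 members and the gene lists were chosen with earlier results of these data known.

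Cells with at least 500 UMIs, 200 genes and under 15% mitochondrial UMIs were kept. A cell's score for a marker list was the mean over markers of log-scaled UMIs per 10000, each divided by its 0.9 quantile among positive cells; a class needed 0.25 and a lead of 0.1, a subset or state 0.3, a value set after subset sizes were seen. Scrublet marked 2 aged and 3 young cells (0.0475% and 0.0644%), so it has not worked and doublets remain. UMIs were summed by class to CPM with exact Poisson, binomial (Clopper-Pearson) or conditional intervals. Thinning to 2000 UMIs left out 291 aged and 236 young cells. The other complement genes were named by rule as the 2 highest and 2 lowest ratios in fibroblast-gated and macrophage-gated cells. The rule also took the highest level per role. C1ra, C1s1, C2, Masp1, Csmd1 and C7 were added after their values were seen, and Cfp is named though Cfd led its role. For 1 gene of the list, counted with the others, values are not reported here. On simulated counts all 200 genes changed were called in the right direction. That checks the calculation only and cannot speak to differences between animals or preparations. Tools were Python 3.11.15, scanpy 1.11.5, scipy 1.17.1 and edgeR 4.0.16 (TMM factors only, no test).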

Additional observations from a re-analysis of the deposited data

Results flagged for a closer look

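C4b stood on opposite sides of 1 in the 2 main classes that count it: the aged/young CPM ratio was 0.626 (0.616 to 0.637) in fibroblast-gated cells and 1.63 (1.47 to 1.81) in macrophage-gated cells. Each library gives 1 value per class, so the difference between the classes was not tested. The fibroblast ratio ran from 0.589 to 0.651 and the macrophage ratio from 1.40 to 1.91 over the processing alternatives on the whole class. Within groups both sides of 1 occurred, on few cells in places. The ratio was 1.56 (1.29 to 1.89) in Acta2 Crabp1 fibroblasts against 0.413 in fibroblasts of no group. In the former, 10 cells held 39.7% of the aged and 56% of the young C4b UMIs. It was 0.418 (0.194 to 0.827) in the Mmp12 macrophage group against 1.28 in the resident-receptor group. The Mmp12 value rests on 11 aged and 41 young UMIs, with 100% and 95.1% of them in 10 cells. The resident-receptor group, richest in C4b, made up 36.0% of aged and 23.4% of young macrophage-gated cells. The part of that share in the macrophage ratio was not tested.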

How the results depend on the processing

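No paired analysis was possible because each age has 1 library. The members past 1.5-fold numbered 4 to 5 in fibroblast-gated cells and 2 to 4 in macrophage-gated cells; the 2 came from TMM scaling. The summed C1q ratio of macrophage-gated cells, 1.06, became 1.18 with Leiden clusters, 1.01 with a stricter gate, 0.977 as a mean of per-cell levels and 0.909 under TMM scaling, and was 1.73 within Ly6c2 Plac8, 0.875 within Mmp12 Il1a Areg, 0.764 within other and 0.982 within resident-receptor cells. The C3 ratio of fibroblast-gated cells, 0.893, became 0.907 with Leiden clusters, 0.965 as a mean of per-cell levels and 0.839 under TMM scaling, and was 1.47 within Acta2 Crabp1, 1.34 within Cxcl14 Cilp, 0.949 within Pi16 Dpp4 and 0.521 within other cells. The cause of these shifts was not tested. Of 95 alternative values of single members and shares, 64 moved by less than the counting interval and 31 moved further. Under TMM scaling every single-member ratio among them moved past its counting interval. No replicate exists, so spread between animals is unknown. Differences of classes under 30 cells are limited by the few cells.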
